A study of Mus musculus with 2 samples.

Results

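Guidance cues are ligand and receptor families first known from growing axons: ephrins and Eph receptors, semaphorins with plexins and neuropilins, Slits and Robos, and netrins with Unc5 receptors and Dcc. They were followed here in the wild-type mouse lens at embryonic stage E12.5. Members were taken by symbol, as every probe whose platform gene symbol belongs to one of these families. The rule found 171 of 45281 probes and 67 of 19057 named genes: 21 ephrins and Eph receptors, 30 semaphorins, plexins and neuropilins, 6 Slits and Robos and 10 genes with netrin, Unc5 or Dcc symbols. The genes Ephb2, Ntn1, Robo3 and Sema5b of the reference gene table were not analysed here.

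The study compared lens epithelium, the cell layer at the front of the lens, with lens fibers, the elongating cells behind it. Biotin-labelled total RNA of each tissue was run on Illumina arrays, 1 for the epithelium and 1 for the fibers. Both were wild type; strain, pooling of embryos and the method of dissection are not given in the sources here. With 1 array per tissue there are no replicates, so no test, p-value or standard error was computed, and every difference below describes these 2 arrays.

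Guidance ligands either repel or attract a cell or process that carries the receptor, by changing its actin cytoskeleton. Ephrins are bound to the membrane and act between touching cells, and they also signal back into the cell that displays them. Secreted class 3 semaphorins bind neuropilins, which pass the signal to plexins, while membrane-bound semaphorins bind plexins directly. Slits are secreted and bind Robo receptors, and netrins bind Dcc and Unc5 receptors. In the lens, ephrin-A5 and EphA2 are known for their part in cell shape and packing, and loss or mutation of either gene has been linked to cataract.

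Intensities below are quantile normalized, and log2 ratios are fibers over epithelium. A gene is represented by its brightest probe. Background was set by 1580 probes of genes that lens should not express: their 95th percentile is the floor, 44.5 for epithelium and 32 for fibers, and a gene is called measured when it is above the floor on at least 1 array. Where only 1 array is above its floor, the ratio is a bound against the other floor and is written "at least N-fold". Where that bound is under 1, no direction is given. A value equal to the floor is counted as below it. In bulk tissue, fewer cells of a type and less RNA per cell cannot be told apart.

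The labels were checked against markers. All 12 fiber markers on the array were 2-fold or more higher in fibers, and 7 of 8 epithelium markers were higher in epithelium by as much. The exception was Foxe3, a transcription factor of the lens epithelium, whose probe was at or below 0 on both arrays. The summed fiber marker signal in epithelium was 13.7% of that in fibers. Among markers of other cell types, 11 of 12 for endothelium, 10 of 11 for periocular mesenchyme, 7 of 8 for retina and 11 of 12 for neurons were below both floors. So were 6 of 7 for surface ectoderm and 5 of 7 each for pigment cells, erythroid cells and macrophages. The erythroid marker Hbb-y read 121.5 in epithelium and 124 in fibers. Over the array, 12605 of 19057 genes were below both floors.

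Most guidance genes gave no signal above the floor. Of the 67 genes, 20 were measured, against 33.9% of all genes, and 47 were below both floors. The 20 comprised 7 above both floors, 5 above the epithelium floor only and 8 above the fibers floor only. For all 6452 measured genes these counts were 2986, 1158 and 2308. Of the 20 guidance genes, 7 were 2-fold or more higher in epithelium (Robo1, Sema4b, Sema6a, Efna5, Epha7, Slit2 and Sema6c), against 19.0% of all measured genes. None of the 20 was 2-fold or more higher in fibers, against 15.6% of all measured genes. The bar was not equal in both directions. An epithelium value was bounded against the fibers floor of 32, and a fibers value against the higher epithelium floor of 44.5. With 44.5 as floor on both arrays, 5 of 18 measured guidance genes were 2-fold or more higher in epithelium and 0 in fibers. The shares of all measured genes were then 15.8% and 17.7%. The median log2 ratio was -0.24 over the 20 genes and 0.00 over the 6452 measured genes of the array. Among the 7 genes above both floors, 4 were beyond 2-fold towards epithelium (17.5% of all such genes) and 0 towards fibers (14.3%).

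Those counts stand beside a spread of similar size in probes taken to be silent. Of 32 such probes above both floors, 9 were beyond 2-fold towards epithelium and 1 towards fibers, with an SD of 0.84 on the log2 scale. Scaling moved the counts as well. Housekeeping genes had a median log2 ratio of 1.03, and scaling both arrays to those genes moved the median of all measured genes from 0.00 to -0.78. Then 10 of 20 guidance genes were beyond 2-fold towards epithelium and 0 towards fibers, against 46.5% and 3.42% of all measured genes.

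**Figure D1:**
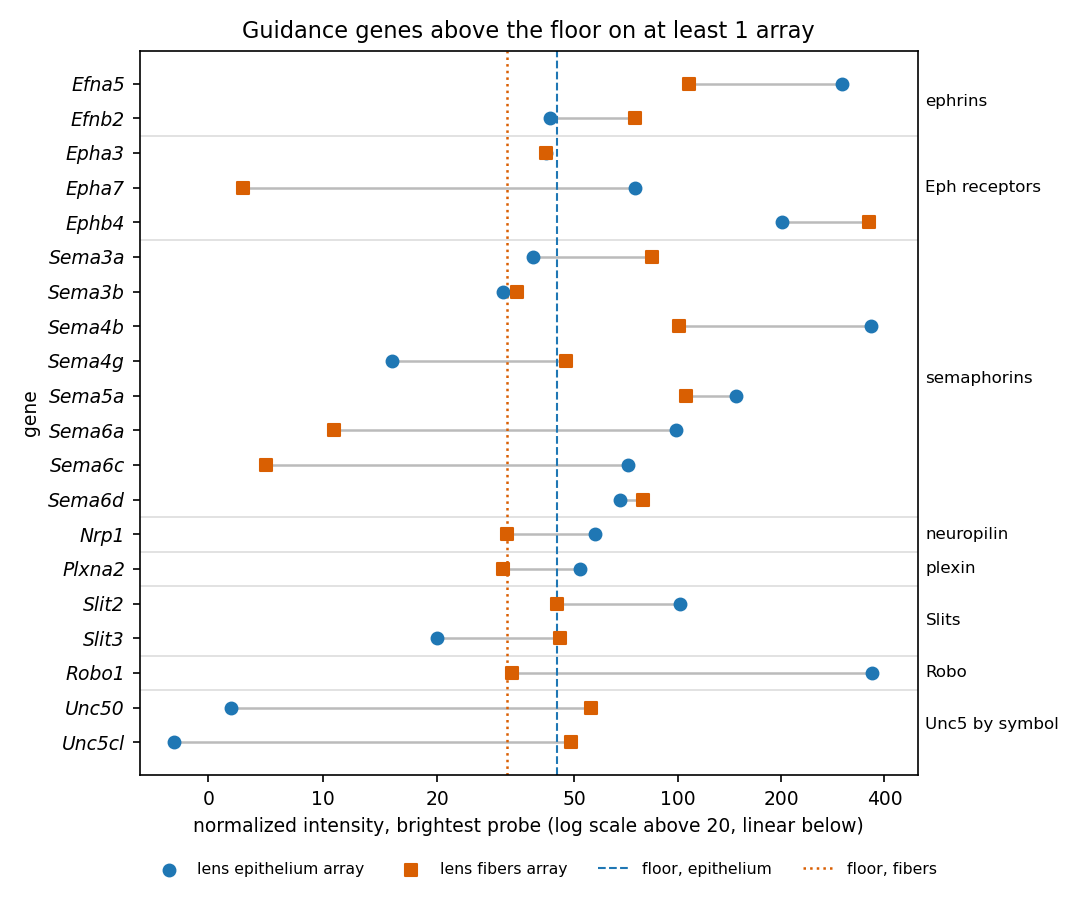
Normalized intensity of the brightest probe of each of the 20 measured guidance genes in epithelium (circles) and in fibers (squares), grouped by family, on an axis that is logarithmic above 20 and linear below, with the floor of each array as a vertical line. Robo1, Sema4b and Efna5 lie far to the right of their fibers value in epithelium, and Ephb4 is the brightest of the genes with a higher fibers value.

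Slits and their receptor Robo1 held the widest difference of any guidance gene. Robo1, a receptor that mediates repulsion from Slits, read 369 in epithelium and 33 in fibers (probe ILMN_2421958), 11.2-fold higher in epithelium. The fibers value was just above the floor of 32, so the size of the fold rests on a signal near background. With the higher floor on both arrays the log2 ratio was a bound of -3.05, with the 99th percentile of silent probes as floor a bound of -2.19, and with no floor it was -2.63. A second Robo1 probe read 49 in epithelium and 3 in fibers, at least 1.53-fold higher in epithelium, and the other Robo1 probes were below both floors.

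Slit2, a secreted Robo ligand, read 102 in epithelium and 44.5 in fibers (probe ILMN_1235829), 2.29-fold higher in epithelium. A second Slit2 probe read 67 and -4, at least 2.09-fold higher in epithelium, and 5 others were below both floors. With no floor the Slit2 log2 ratio was -0.81, below 2-fold. Ligand and receptor were thus both on the higher side in epithelium, each by 2 probes, the second of them above the epithelium floor only.

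Slit3 read 20 in epithelium and 45.5 in fibers, a bound of 0.03 on the log2 scale, and it had no direction in the deposited values, after the loess fit or when scaled to housekeeping genes. Robo2 read 36 and 19, Robo4, a Robo of endothelium, read 2 and 1, and Slit1 read 2 and 3, all below both floors.

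The promoters of Robo1, Slit2 and Efna5 are shown because these genes were above both floors, stood beyond 2-fold towards epithelium and have a single start site in the table. Each window runs from 250 bases before to 50 bases after the gene's start, 5′ to 3′ on the gene's strand, from RefSeq on GRCm38.p6: chr16:72662899-72663198 on the plus strand for Robo1, chr5:47982905-47983204 on the plus strand for Slit2 and chr17:62881268-62881567 on the minus strand for Efna5. Capitals mark matches to the motifs named after the sequences.
Robo1: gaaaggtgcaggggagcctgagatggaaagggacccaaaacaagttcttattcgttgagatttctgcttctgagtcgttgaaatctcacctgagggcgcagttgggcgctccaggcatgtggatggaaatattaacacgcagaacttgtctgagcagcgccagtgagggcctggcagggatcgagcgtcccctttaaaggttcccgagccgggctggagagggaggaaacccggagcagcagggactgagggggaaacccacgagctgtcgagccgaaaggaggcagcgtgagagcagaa
Slit2: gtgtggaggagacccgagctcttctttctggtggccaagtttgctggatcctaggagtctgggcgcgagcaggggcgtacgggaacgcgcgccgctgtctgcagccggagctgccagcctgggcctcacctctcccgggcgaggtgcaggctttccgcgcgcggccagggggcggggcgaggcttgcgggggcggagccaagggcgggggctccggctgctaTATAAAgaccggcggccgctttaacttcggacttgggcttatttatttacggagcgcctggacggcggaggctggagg
Efna5: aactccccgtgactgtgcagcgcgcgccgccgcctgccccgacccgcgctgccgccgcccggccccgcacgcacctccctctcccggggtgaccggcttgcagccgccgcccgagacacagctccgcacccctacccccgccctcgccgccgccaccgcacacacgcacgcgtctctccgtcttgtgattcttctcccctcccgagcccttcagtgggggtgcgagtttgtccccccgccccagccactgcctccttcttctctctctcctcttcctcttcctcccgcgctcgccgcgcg

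The motifs searched, on both strands, were TGCTGA (the core that Maf factors bind), CACGTG (an E-box), TTTNGCGC (E2F), TATAAA and CCAAT. They occur in 19.5%, 7.15%, 1.38%, 13.6% and 37.4% of the 32851 promoters of that length. The only match in the 3 windows was TATAAA in Slit2, starting at position -28 from the gene's start, so no matches overlapped. The windows of Efna5 and Slit2 held 38 and 30 CG dinucleotides and that of Robo1 held 15, against a median of 7 over all promoters. GC content was 73.3% for Efna5, 68.0% for Slit2 and 57.0% for Robo1, against a median of 52.7%. These are descriptions of the windows, and no binding was measured.

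Of 21 ephrin and Eph receptor genes, 5 were measured, against 33.9% of all genes. The A-class genes Efna5 and Epha7 were beyond 2-fold towards epithelium, and the A-class receptor Epha3 had no direction. The B-class pair Efnb2 and Ephb4 had higher values in fibers, below 2-fold and not when scaled to housekeeping genes. A difference between the classes was not tested.

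Efna5, the membrane-anchored ligand ephrin-A5, read 301 in epithelium and 108 in fibers (probe ILMN_2757641), 2.79-fold higher in epithelium. Its second probe read 87.5 and 2, at least 2.73-fold higher in epithelium. Efna5 was 2-fold or more higher in epithelium under all 9 alternatives that keep the threshold. No other A-class ephrin was measured: Efna1 read 7 and -8, Efna2 -5 and -6, Efna3 -5 and -5 and Efna4 4 and 2.

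Epha7, a receptor of A-class ephrins, read 75 in epithelium and 3 in fibers (probe ILMN_2554261), at least 2.34-fold higher in epithelium. Another Epha7 probe read 52.5 and -6, at least 1.64-fold. With the higher floor on both arrays the brighter probe gave a bound of -0.75, below 2-fold. Epha3, a further A-class receptor, read 41.5 on both arrays, below the floor in epithelium and above it in fibers, with no direction, but a second probe read 50 and -5, at least 1.56-fold higher in epithelium. Epha2, the receptor linked to cataract, had 1 probe, which read -10 in epithelium and -8 in fibers, so its level is not known here. Epha1, Epha4, Epha5, Epha6, Epha8 and Epha10 were also below both floors.

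Ephb4, a receptor for ephrin-B2, read 201.5 in epithelium and 360.5 in fibers (probe ILMN_2777884), 1.79-fold higher in fibers, but its log2 ratio of 0.84 was -0.19 when scaled to housekeeping genes. The other 2 Ephb4 probes were below both floors. Efnb2, the transmembrane ligand ephrin-B2, read 42.5 and 75, at least 1.69-fold higher in fibers, with no direction once scaled to housekeeping genes. This ligand and receptor are known from the vessel wall, and of 12 endothelial markers only Tek was above a floor, in fibers, with a log2 bound of 0.91. The summed level of the endothelial markers was 160 in epithelium and 138.5 in fibers, and Emcn was at or below 0 on both arrays; the part of endothelial RNA in the Ephb4 and Efnb2 values was not tested. The B-class genes Efnb1, Efnb3, Ephb1, Ephb3 and Ephb6 were below both floors.

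**Figure D2:**
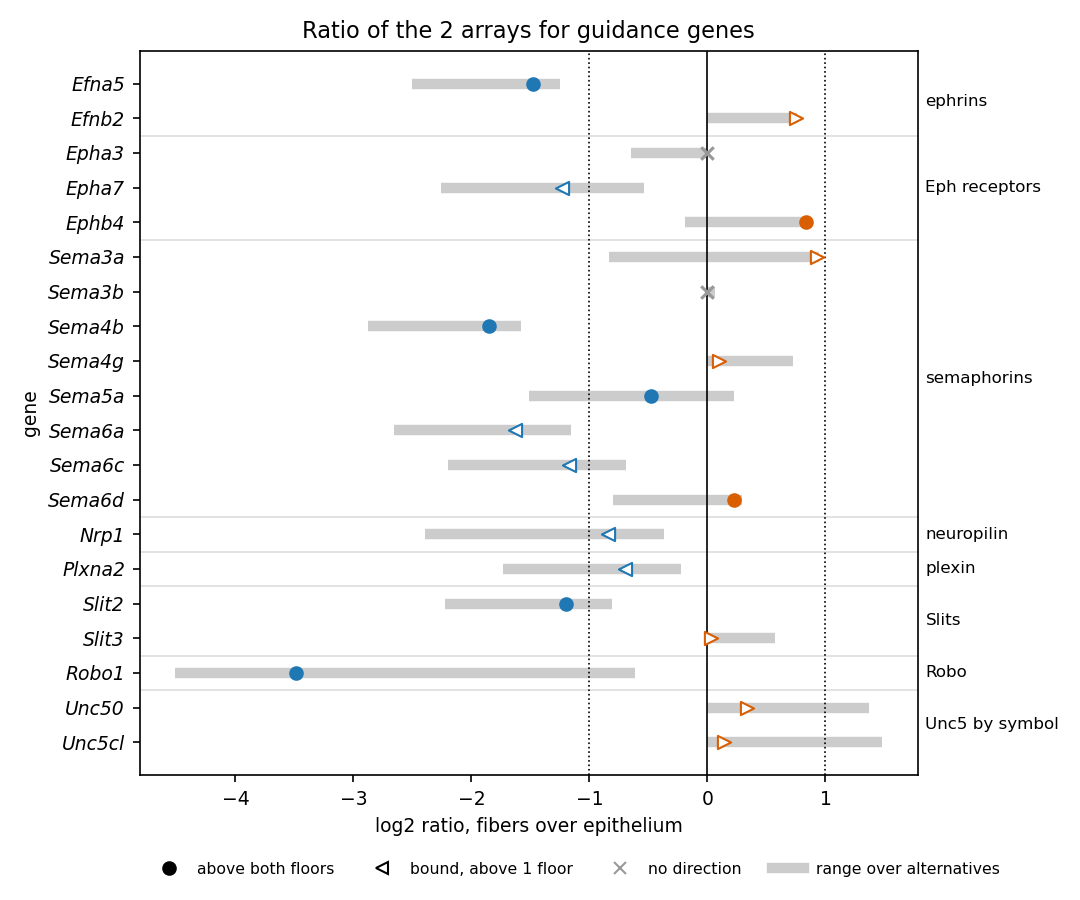
Log2 ratio of fibers over epithelium for the 20 measured guidance genes (blue, higher in epithelium; orange, higher in fibers). Filled points were above both floors, open triangles are bounds, crosses have no direction and dotted lines mark 2-fold. Grey bars give the range over the alternatives that keep the threshold and gave the gene a value. Efna5, Sema4b and Sema6a stay beyond 2-fold over their whole grey bar, drawn from 9, 8 and 6 alternatives. The grey bar of Ephb4 crosses 0.

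Among semaphorins, 8 of 19 were measured, against 33.9% of all genes. Of these 8, 3 were 2-fold or more higher in epithelium, against 19.0% of all measured genes. Sema4b, a transmembrane class 4 semaphorin, read 364.5 in epithelium and 101 in fibers (probe ILMN_1226447), 3.61-fold higher in epithelium, and stayed beyond 2-fold under all 8 alternatives that gave it a value. Its second probe, at 12 and -2 in the deposited values, was below both floors. Sema6a, a class 6 semaphorin that binds plexin-A2 and plexin-A4, read 99 and 11 (probe ILMN_2577965), at least 3.09-fold higher in epithelium. The 4 other Sema6a probes were below both floors. Sema6a stayed beyond 2-fold under the 6 alternatives that gave it a value. It was not measured with the 99th percentile of silent probes as floor, the second brightest probe or the mean of all probes.

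Sema6c read 72 in epithelium and 5 in fibers (probe ILMN_1220277), at least 2.25-fold higher in epithelium, and its second probe read 61.5 and -2, at least 1.92-fold. With the higher floor on both arrays the Sema6c bound was -0.69, below 2-fold. The class 6 gene Sema6d differed from Sema6a and Sema6c in that both arrays were above the floor and close together, at 68 and 79.5, a log2 ratio of 0.23 that was -0.80 when scaled to housekeeping genes. Sema6b was below both floors. Class 6 semaphorins thus had values on both sides of 0, and the difference between them was not tested.

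Sema3a and Sema5a, each with several probes, gave no settled direction. For Sema3a, a secreted repellent that lens is known to make, the brighter probe read 38 in epithelium and 84.5 in fibers, at least 1.90-fold towards fibers, and the other read 57 and 27, at least 1.78-fold higher in epithelium. The fibers direction was lost when scaled to housekeeping genes. For Sema5a, a transmembrane semaphorin with thrombospondin repeats, one probe read 148 and 106, 1.40-fold higher in epithelium, and another read 44.5 and 52, at least 1.17-fold higher in fibers.

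Sema4g read 16 and 47.5, with a bound of 0.09 on the log2 scale and no direction once scaled to housekeeping genes, and Sema3b read 31 and 34 with no direction. The other 11 semaphorins were below both floors, among them the secreted Sema3c, Sema3d, Sema3e, Sema3f and Sema3g. The nearest to a floor was Sema4a, at 34 in epithelium and 32 in fibers.

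Of the receptors of semaphorins, 1 of 2 neuropilins and 1 of 9 plexins were measured. Nrp1, the coreceptor of Sema3a that also binds vascular growth factors, was above the epithelium floor by 3 probes. The same 3 were at or below the fibers floor, with values of 57.5 and 32, 82.5 and -2, and 50.5 and 27. The brightest of these by its mean over both arrays gave at least 1.80-fold, and the others at least 2.58-fold and 1.58-fold, all higher in epithelium. Plxna2, a plexin that serves class 3 and class 6 semaphorins, read 52 and 31, at least 1.63-fold higher in epithelium. The other 8 plexins and Nrp2 were below both floors; Plxnb3 came nearest in epithelium at 40.5, with -4 in fibers, and Plxnd1 read 30 and 32.

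**Figure D3:**
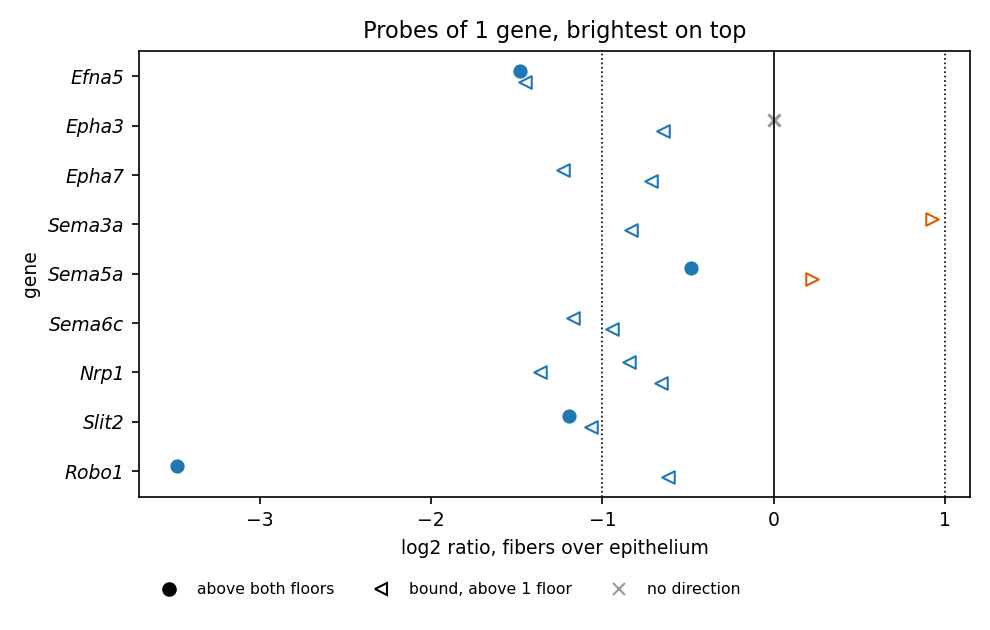
Log2 ratio of each probe above a floor for the 9 guidance genes with several such probes, the brightest probe on top (blue, higher in epithelium; orange, higher in fibers; triangles are bounds, the cross has no direction, dotted lines mark 2-fold). The probes of Efna5, Epha7, Sema6c, Nrp1, Slit2 and Robo1 point to epithelium, and those of Sema3a and Sema5a point in opposite directions.

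Probes of 1 gene read the same 2 RNA samples, so their agreement is not a repeat measurement. Of the 30 guidance probes above a floor, 7 were above both. A probe above only the epithelium floor can only point to epithelium, because that floor is the higher. Agreement among such probes therefore follows in part from the floors. Of the 20 measured genes, 9 had several probes above a floor; in 6 of them all such probes pointed the same way, and in 2, Sema3a and Sema5a, they pointed in opposite directions. In 9 other genes 1 probe was above a floor and the remaining probes of the gene were below both. Over the whole array, 472 genes had 2 probes above both floors. Their log2 ratios differed by a median of 0.51 and had the same sign in 73.5% of these genes. That condition is stricter than the one used for the guidance genes, where no second brightest probe was above both floors.

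None of the netrins, Dcc and the Unc5 receptors among the 67 genes was measured. Neogenin (Neo1), a netrin receptor outside the symbol rule and named after its values were seen, was above both floors, at 91 in epithelium and 76.5 in fibers, a log2 ratio of -0.25. Its second brightest probe gave a bound of 0.59 towards fibers, and the mean of all its probes gave no direction. Ntn3 read 14 and 13, Ntn4 6 and 12 and Ntn5 16 and 16. The netrin receptor Dcc read 7 in epithelium and 10 in fibers over its brightest of 4 probes. Unc5a read 33 and 21, Unc5b -1 and 4, Unc5c 19 and -3 and Unc5d -1 and -1. The measured genes of the group were not netrin receptors: Unc50, a Golgi and nuclear membrane protein, read 2 and 56, and Unc5cl, an intracellular protein related to the tail of Unc5 receptors, read -3 and 49. Their bounds towards fibers were at least 1.26-fold and 1.10-fold, and scaling to housekeeping genes took both directions away. Without these genes, 18 of 65 guidance genes were measured, with a median log2 ratio of -0.59.

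By role, 12 of 33 ligand genes were measured and 5 were 2-fold or more higher in epithelium; of 32 receptor genes, 6 were measured and 2 were as much higher there. Neither group had a gene 2-fold or more higher in fibers. Over the array, 33.9% of genes were measured, and of those 19.0% were beyond 2-fold towards epithelium and 15.6% towards fibers.

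**Figure D4:**
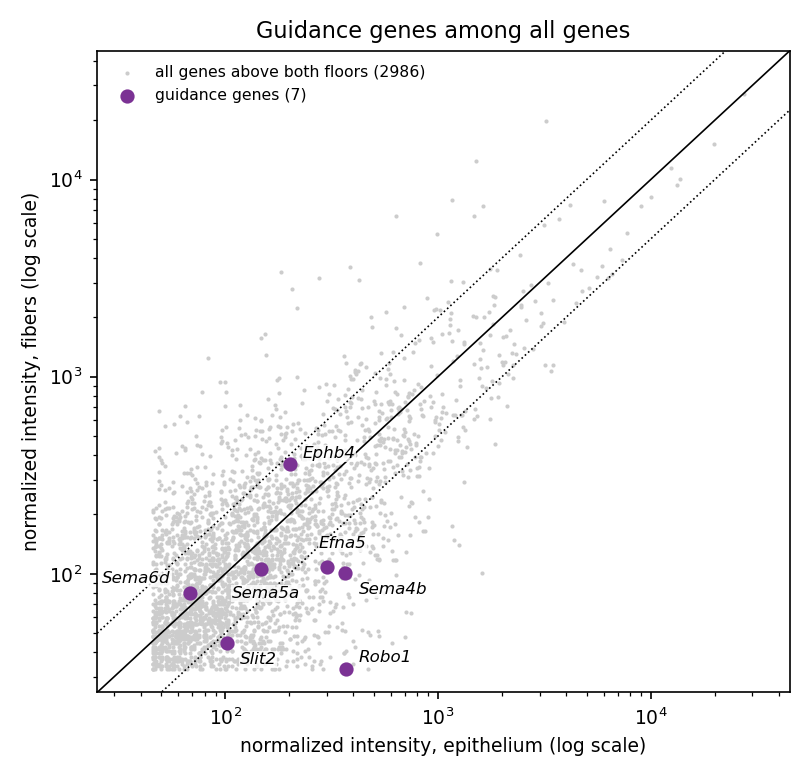
Normalized intensity in fibers against epithelium, both on log scales, for the 2986 genes above both floors (grey) and the 7 guidance genes among them (purple), with the line of equal values and dotted lines at 2-fold. Robo1, Sema4b, Efna5 and Slit2 lie below the lower dotted line, Ephb4, Sema5a and Sema6d lie between the lines, and none is among the brightest genes of the array.

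Genes that act with the guidance receptors were taken from lists of partners and signal transducers. Their counts stand against 15.6% of all measured genes beyond 2-fold towards fibers and 19.0% towards epithelium. Of 23 Eph and ephrin partners, 15 were measured, with 4 beyond 2-fold in each direction and a median of 0.00. Adam10, a membrane protease that cleaves ephrin-As, read 13 in epithelium and 261.5 in fibers, at least 5.88-fold higher in fibers. On the epithelium side were Inppl1, a lipid phosphatase that binds Eph receptors (203.5 and 7, at least 6.36-fold, with a second probe at least 6.19-fold), Pik3r1, the regulatory subunit of a lipid kinase (at least 5.14-fold), Rasa1, a Ras inhibitor (3.29-fold) and the adaptor Grb10 (3.23-fold). With the 99th percentile of silent probes as floor, the Rasa1 log2 bound was -0.51, below 2-fold. Afdn, Crk and Ptprf, the other genes 2-fold or more higher in fibers, were named after their values were seen.

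Of 24 semaphorin partners on the array, 9 were measured, with 1 beyond 2-fold towards fibers and 2 towards epithelium and a median of -0.18. Rnd3, a small GTPase related to those that plexins bind, read 274.5 in epithelium and 44.5 in fibers (6.17-fold). Mical3, of the family of oxidases that disassemble actin, was at least 3.73-fold higher in epithelium. Its log2 bound was -0.57 with the 99th percentile of silent probes as floor and -0.83 with the mean of all probes, below 2-fold. Limk1, the kinase that inactivates cofilin, read 52.5 and 121.5 (2.31-fold higher in fibers). Gipc1, an adaptor that binds neuropilin-1, read 2544 and 1399 with a log2 ratio of -0.86, but 2 dimmer probes pointed to fibers, one of them by 2.66-fold. Dpysl5, a collapsin response mediator, had a log2 ratio of -0.78.

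Of 16 Slit and Robo partners on the array, 9 were measured, with 1 beyond 2-fold towards fibers and 3 towards epithelium and a median of 0.29. Gpc1, a glypican that binds Slits, read 271 in epithelium and 48.5 in fibers (5.59-fold). Pak2, a kinase downstream of Rac, and Enah, which binds Robos and extends actin filaments, were 2.94-fold and 2.11-fold higher in epithelium. Arhgap39, a GTPase activating protein that binds Robo, read 97 and 473 (4.88-fold higher in fibers), and Evl, of the Enah family, had a bound of 0.73 that was lost when scaled to housekeeping genes.

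Of 21 netrin partners on the array, 13 were measured, with 4 beyond 2-fold towards fibers and 2 towards epithelium and a median of 0.00. Flrt3, a membrane ligand of Unc5 receptors, read 395 in epithelium and 31 in fibers, at least 12.3-fold higher in epithelium. Draxin, a secreted ligand of Dcc, read 294.5 and -2, at least 9.20-fold, with a second probe at least 4.91-fold. The related Flrt2 read 71 and 171.5 (2.42-fold higher in fibers), and the actin regulators Rac1 (at least 2.88-fold) and Wasl (2.66-fold) were also higher in fibers. Maged1, also higher there by 2-fold or more, was named after its values were seen. When scaled to housekeeping genes, the log2 ratios of Limk1, Flrt2, Rac1 and Wasl were between 0.18 and 0.50, below 2-fold.

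**Figure D5:**
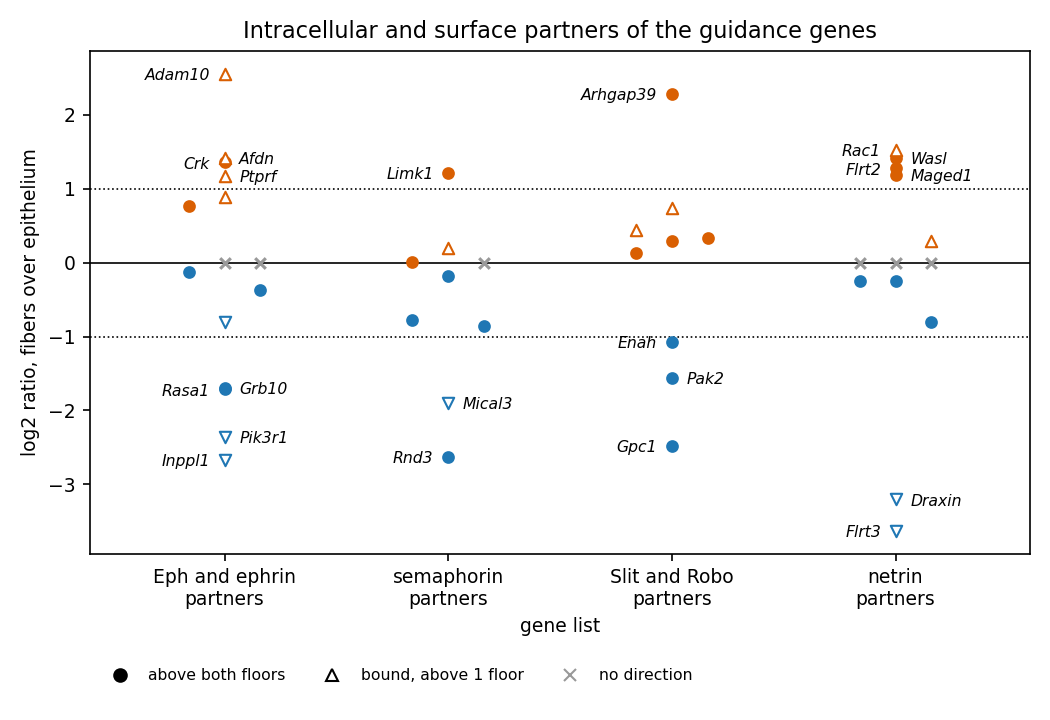
Log2 ratio of fibers over epithelium for the measured partners of each guidance family (blue, higher in epithelium; orange, higher in fibers; filled, above both floors; open triangles, bounds; crosses, no direction), with names for genes at 2-fold or more and dotted lines at 2-fold. Each list has genes beyond 2-fold on both sides, from Flrt3 at -3.63 to Adam10 at 2.55.

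Of the marker lists for other tissues, those for periocular mesenchyme, retina, neurons, endothelium, pigment cells and macrophages summed higher in epithelium. That is also the direction of the 7 guidance genes beyond 2-fold, but a link was not tested. The sums include values below the floors, and the floor itself was higher in epithelium (44.5) than in fibers (32). For periocular mesenchyme, retina and neurons, most of the epithelium sum came from the only measured marker of the list. No endothelium marker was above the epithelium floor, and the only measured one, Tek, read 7 in epithelium and 83.5 in fibers. Of the measured pigment markers, Pmel read 56 and 11 and Mitf 64 and 76.5. Those for surface ectoderm (104 and 124) and erythroid cells (168.5 and 231.5) summed higher in fibers. The summed level of the periocular mesenchyme list was 314.5 in epithelium and 80 in fibers, with Tfap2b as the only measured marker (208.5 and 36) and Col1a1 and Snai2 at or below 0 on both arrays. For retina the sums were 1316.5 and 176.5, with Sfrp2 as the only measured marker (1256 and 139.5) and Six6 at or below 0. For neurons they were 297 and 120, with Elavl3 as the only measured marker (213 and 78) and Gap43 and Dcx at or below 0. The part of these tissues in the Robo1, Slit2, Efna5 and semaphorin values was not tested.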

How the data were processed

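The deposited table holds an intensity for each of 45281 probes on 2 arrays. Every deposited intensity is a whole number on a linear scale, 38.0% of epithelium and 38.7% of fibers values are at or below 0, and the sources here do not give the background method or any scaling. Probes were named by the platform annotation: 34885 had 1 symbol, 18 several (not used) and 10378 none. Gene IDs of all 67 guidance genes were found in the reference gene table, and 58 had an entry among the RefSeq promoters.

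Intensities were quantile normalized on the linear scale (Python 3.11.15, numpy 2.4.6, pandas 2.3.3), ties at their mean rank. A gene's brightest probe is the one with the highest mean over both arrays. The floor came from olfactory, vomeronasal, trace amine receptor and keratin-associated genes. Bounds enter medians at their value and genes with no direction as 0. Differences are described at 2-fold, with no test, since each group is 1 array; precision is limited by the number of arrays. The scripts were tested on simulated data.

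All measured guidance genes are named. From each partner list the text names up to 5 genes with the largest ratio or bound, and those at 2-fold or more against the list's median. The members, lists and alternatives were chosen with earlier results of these data known.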

Additional observations from a re-analysis of the deposited data

How the results depend on the processing

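In all, 10 alternatives were planned and 1, the probe with the highest value on either array, was added after the data were seen. It put 8 of 20 measured guidance genes beyond 2-fold towards epithelium, against 19.4% of all measured genes. No named gene at 2-fold or more changed sign. No paired analysis was possible because each group is 1 array. Signal over background limits what can be measured. With the 99th percentile of silent probes as floor (110.5 and 80.7), 6 guidance genes were measured. Of these, 3 were beyond 2-fold towards epithelium, against 14.9% of all measured genes. They were 1 each among Ephs, semaphorins and Slits with Robos. The second brightest probe (8 measured) and the mean of all probes (10 measured) also gave 3, with 1 in each of these families. The shares of all measured genes were 15.9% and 16.1%. For the second brightest probe the 3 genes were Efna5, Nrp1 and Slit2, and in the other 2 settings Efna5, Robo1 and Sema4b. At 3-fold there were 3, with 0 in the Eph family and 1 among Slits and Robos. At 1.5-fold, 3 genes were higher in fibers, 2 of the Eph family and 1 semaphorin, and 5 of the semaphorin family were higher in epithelium. Shares of all genes at 3-fold and 1.5-fold are not given here. Scaled to housekeeping genes, 6 of the semaphorin family were higher in epithelium, against 46.5% of all measured genes. With the higher floor on both arrays, 5 of 18 measured guidance genes were, 1 of them of the Eph family, against 15.8% of all measured genes. With no floor, 2 genes were beyond 2-fold towards fibers, both of the netrin group (Unc50 and Unc5cl), and 1 of the Slits and Robos was higher in epithelium. In that setting 7 of all 67 guidance genes were beyond 2-fold towards epithelium, against 8.02% of all genes. The 2 towards fibers stood against 7.80% of all genes. The causes were not tested. The median log2 ratio over guidance genes was -1.16 when scaled to housekeeping genes and between -0.98 and -0.03 under the other alternatives.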

Other observations

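Guidance and adhesion genes outside the families above held differences as wide as those within. Of 49 such genes, 24 were measured, with 5 beyond 2-fold towards epithelium and 1 towards fibers and a median log2 ratio of 0.00, against 19.0% and 15.6% of all measured genes. Ptprk, a receptor tyrosine phosphatase of cell contacts, read 342 in epithelium and 16 in fibers, at least 10.7-fold towards epithelium, and its second probe gave at least 2.84-fold. Cntn6, a contactin, read 260.5 and 36 (7.24-fold), Tenm4, a teneurin, read 112.5 and 8 (at least 3.52-fold) and Omg, a membrane-anchored glycoprotein first known from myelin, read 79.5 and 14 (at least 2.48-fold), all higher in epithelium. With the mean of all probes the log2 bounds of Tenm4 and Omg were -0.52 and -0.56, below 2-fold. With the 99th percentile of silent probes as floor the Tenm4 bound was -0.48. Nrcam, an adhesion molecule of the L1 family that binds neuropilins, read 15 in epithelium and 346 in fibers, at least 7.78-fold higher in fibers. With the mean of all probes the Nrcam log2 bound was 1.16. The fifth gene higher in epithelium was Ptprs, with a log2 ratio of -1.05, named after its values were seen.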
